A study of Homo sapiens with 6 samples.

Results

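Guanylate-binding proteins (GBPs) and immunity-related GTPases (IRGs) are described here as a group of 7 genes, GBP1, GBP2, GBP3, GBP4, GBP5, IRGM and IRGQ, chosen by symbol among the 61517 gene rows of the deposited table. Poly-A RNA was sequenced from THP-1, a human monocytic leukaemia line, after differentiation into macrophages and induction of pyroptosis, a lytic inflammatory cell death, with lipopolysaccharide (LPS) and ATP. One group of 3 libraries came from cells given ruxolitinib, an inhibitor of the JAK1 and JAK2 kinases that the treatment field spells Lukotinib. The other 3 libraries came from cells without the drug, called control here. Both groups share the line, the differentiation and the LPS and ATP stimulus, so both are stimulated, and no unstimulated cells were analysed here. The sources used here state neither the drug dose nor the times, nor what was used to differentiate the cells. Each library carries a batch number from 1 to 3 that a ruxolitinib and a control library share. The labels do not say whether replicate libraries are separate cultures, so each p-value reflects the spread between these libraries alone, which may be technical. THP-1 is a tumour line from 1 source, which limits it as a model of blood macrophages.

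GBPs are large GTPases of the dynamin superfamily that assemble on the surface of cytosolic bacteria and on damaged vacuoles, where they expose LPS and promote inflammatory caspase activation. Their genes are textbook targets of interferons: receptor-bound JAK kinases phosphorylate STAT proteins, and the STAT and IRF transcription factors bind gamma-activated sites (GAS) and interferon-stimulated response elements (ISRE). IRGs are smaller GTPases that form a large interferon-inducible family in mice, whereas the human genome keeps few of them, among them IRGM and IRGQ, both tied to autophagy.

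The libraries held 19253534, 19041988 and 18796476 counts with ruxolitinib and 17757595, 24533979 and 22780991 counts in control. Where a gene had 0 counts, its level could still be as high as 0.157 to 0.161 CPM (counts as a rate over the library total after TMM scaling) with ruxolitinib and 0.119 to 0.169 CPM in control, from 3 counts per library and counting error only. All 10 monocyte and macrophage markers passed the filter on low counts. Their summed level was 630 to 687 CPM with ruxolitinib and 1222 to 1247 CPM in control. By the test described below, 9 of the 10 were lower and LYZ, encoding lysozyme, higher with the drug. Over all tested genes, 16.1% were lower and 13.6% higher. The 9 falls were uneven, from 1.24-fold for CD33 to 2.22-fold for CSF1R. CD68, at 198 against 424 CPM in control, and CSF1R, at 176 against 391 CPM, weighed most in the sum. T cell markers summed to at most 0.0524 CPM with ruxolitinib and 0.0563 CPM in control, with CD3D and CD3E at 0, and erythroid markers to 0 and at most 0.0398 CPM, with HBB at 0. The B cell, epithelial, fibroblast and endothelial marker sums stayed at or below 1.66 CPM with ruxolitinib and 1.63 CPM in control.

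Of the 7 genes, 5 were lower with ruxolitinib, 0 were higher, 1 did not pass the test and 1 had too few counts to be tested. The 5 that fell were all of GBP1 to GBP5. Among the 14051 genes tested with edgeR's quasi-likelihood test at a Benjamini-Hochberg adjusted p of 0.05, 29.7% passed in either direction, 16.1% lower and 13.6% higher. The median log2 fold change of the 5 GBPs was -2.35, against -0.01 over all tested genes. The ruxolitinib and control libraries did not overlap for any of the 5 GBPs, with ruxolitinib below control, a pattern found in 23.7% of the tested genes, and in 44.3% when either direction is counted. In bulk RNA from a cell line, a smaller share of cells in a given state and less RNA of these genes per cell cannot be told apart. The part of the lower monocyte and macrophage marker sum in the lower GBP levels was not tested.

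**Figure D1:**
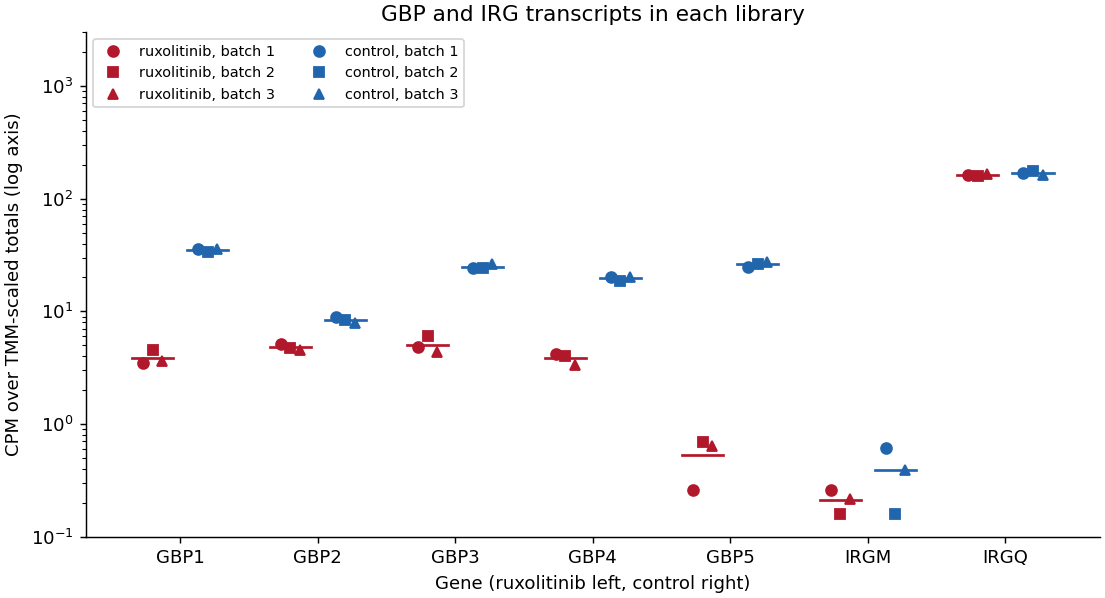
Level of each gene in each library, in CPM over TMM-scaled totals on a log axis, with ruxolitinib in red to the left of control in blue, marker shape giving the batch and bars the group means. The red points of GBP1 to GBP5 lie below the blue points, and come nearest for GBP2, at 5.09 against 7.85 CPM, while the groups overlap for IRGM and IRGQ.

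The promoters of the genes with an entry in the RefSeq promoter table (GRCh38.p14) are shown because both motif types below are read by STAT and IRF factors. Any link between the motifs and the changes in level was not tested. Entries were found for GBP1, GBP3, GBP4 and IRGQ, and GBP2, GBP5 and IRGM have no entry. Each line runs 5′ to 3′ on the strand of the gene, from 200 bases before the annotated start to 12 bases from the start on, and all 4 genes lie on the minus strand. Capitals mark matches to the ISRE core, which is GAAA, 2 bases of any kind and GAAA again, or TTTC, 2 bases and TTTC when read on the other strand, and to the GAS core, TTCNNNGAA. The windows are chr1:89065197-89065408 for GBP1, chr1:89022855-89023066 for GBP3, chr1:89198931-89199142 for GBP4 and chr19:43596123-43596334 for IRGQ.
GBP1: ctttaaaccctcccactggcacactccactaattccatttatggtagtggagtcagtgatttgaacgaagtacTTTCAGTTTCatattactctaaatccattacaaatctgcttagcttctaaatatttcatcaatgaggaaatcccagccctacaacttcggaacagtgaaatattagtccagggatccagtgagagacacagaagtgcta
GBP3: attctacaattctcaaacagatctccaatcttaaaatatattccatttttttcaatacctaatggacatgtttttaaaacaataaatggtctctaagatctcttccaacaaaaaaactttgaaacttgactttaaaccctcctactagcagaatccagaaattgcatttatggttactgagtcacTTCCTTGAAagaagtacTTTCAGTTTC
GBP4: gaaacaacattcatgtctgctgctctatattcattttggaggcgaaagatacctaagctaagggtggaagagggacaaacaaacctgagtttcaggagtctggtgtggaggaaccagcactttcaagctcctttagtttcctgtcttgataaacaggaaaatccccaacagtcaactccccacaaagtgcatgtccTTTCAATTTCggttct
IRGQ: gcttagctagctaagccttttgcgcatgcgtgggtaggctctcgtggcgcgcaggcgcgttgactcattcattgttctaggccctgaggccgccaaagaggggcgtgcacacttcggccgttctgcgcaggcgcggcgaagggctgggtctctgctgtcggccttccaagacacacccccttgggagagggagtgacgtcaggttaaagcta
Both strands were searched over the whole table window of 250 bases before to 50 bases after the start, counting the start as 0. GBP1 held 1 ISRE core, TTTCAGTTTC, at positions -127 to -118, and GBP3 held the same 10 letters at positions 2 to 11. GBP4 held TTTCAATTTC across its start, at positions -4 to 5. GBP3 also held a GAS core, TTCCTTGAA, at positions -15 to -7, and the GBP1 and GBP4 windows held no match to TTCNNNGAA. Looser spellings of a gamma-activated site were not searched for, so a window with no match may still hold such a site. The IRGQ window held neither motif. Positions count from the RefSeq starts, which differ from the GENCODE starts of the gene coordinates given below. The GBP1 match, at chr1:89065326-89065335, lies inside the GENCODE gene, which starts at 89065360. Both GBP3 matches, at chr1:89022855-89022864 and chr1:89022873-89022881, also lie inside that gene, which starts at 89022894. The GBP4 match, at chr1:89198937-89198946, lies before the GENCODE start at 89198932. Where a match lies thus depends on the annotation. Of 35116 promoter windows in the table, 3.57% held an ISRE core and 7.66% a GAS core. The longest run of letters shared by the GBP1 and GBP3 windows was GAAGTACTTTCAGTTTCAT, 19 bases that include the ISRE core, whereas the other pairs among these 4 windows shared 7 to 9 bases. These matches describe the letters in the windows and say nothing of whether a factor bound there.

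GBP1, the GBP that binds LPS on cytosolic bacteria first and recruits the others, lies on the minus strand at chr1:89052319-89065360 (ENSG00000117228, GENCODE 29, GRCh38). It had 3.51, 4.50 and 3.59 CPM in the ruxolitinib libraries of batches 1 to 3, against 36.0, 33.7 and 35.7 CPM in the control libraries. Every ruxolitinib library lay far below every control library, with a mean of 3.87 ± 0.546 CPM against 35.1 ± 1.25 CPM (SD, n = 3 each), 9.07-fold lower. The log2 fold change was -3.18 ± 0.10 (SE, 95% interval -3.40 to -2.96, adjusted p = 2.57e-10), which placed GBP1 51st from the lowest of all tested genes. Within batches 1, 2 and 3 the log2 ratios were -3.32, -2.88 and -3.28, taken with 0.1 CPM added to each level. Of the 50-base words of its longest coding transcript, 13.3% also occurred in another annotated gene, most of them in the pseudogene GBP1P1, so the authors' counting could split some reads, while 1.87% of 100-base words did. GBP1P1 itself had 1 count over the ruxolitinib libraries and 23 counts over the control libraries. For the other 4 GBPs, 3.03 to 5.99% of 50-base words and at most 1.26% of 100-base words occurred in another gene.

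GBP2, which carries a lipid anchor and joins GBP1 on bacteria, changed least of the 5 GBPs in fold. It is at chr1:89106132-89150456 on the minus strand (ENSG00000162645). The ruxolitinib libraries had 5.09, 4.76 and 4.56 CPM, against 8.83, 8.39 and 7.85 CPM in control. The groups did not overlap, and the spread within each was small beside the gap, at 4.80 ± 0.266 CPM with ruxolitinib against 8.36 ± 0.490 CPM in control (SD, n = 3 each). The fall was 1.74-fold, with a log2 fold change of -0.80 ± 0.12 (SE, 95% interval -1.06 to -0.53, adjusted p = 0.000382), and its within-batch log2 ratios were -0.78, -0.80 and -0.77. GBP2 ranked 723rd from the lowest, well behind the other 4. Its exons overlap those of GBP7 by 621 bases on the same strand, 9.90% of its exonic length, and GBP7 had 2 counts over the ruxolitinib libraries and 5 over the control libraries.

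GBP3, which is recruited to bacteria coated by GBP1, lies at chr1:89006666-89022894 on the minus strand (ENSG00000117226). It had 4.82, 6.0 and 4.40 CPM in the ruxolitinib libraries, against 24.0, 24.4 and 26.4 CPM in the control libraries. The ruxolitinib libraries were all below every control library by a wide margin, and batch 2 was the highest of them. The means were 5.07 ± 0.828 CPM with ruxolitinib and 25.0 ± 1.29 CPM in control (SD, n = 3 each), a 4.92-fold fall with a log2 fold change of -2.30 ± 0.11 (SE, 95% interval -2.54 to -2.05, adjusted p = 2.26e-08). Within-batch log2 ratios were -2.29, -2.01 and -2.56.

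GBP4, also part of the GBP coat on bacteria but without the C-terminal lipid anchor signal of GBP1, GBP2 and GBP5, lies at chr1:89181148-89198932 on the minus strand (ENSG00000162654). The ruxolitinib libraries had 4.14, 4.02 and 3.33 CPM, against 20.3, 18.5 and 20.0 CPM in control. Again no ruxolitinib library reached a control library, and the means were 3.83 ± 0.440 CPM against 19.6 ± 0.949 CPM (SD, n = 3 each). GBP4 fell 5.10-fold, with a log2 fold change of -2.35 ± 0.11 (SE, 95% interval -2.60 to -2.11, adjusted p = 1.81e-08) and within-batch log2 ratios of -2.26, -2.18 and -2.55. The intervals of GBP3 and GBP4 overlapped over most of their length, and these genes ranked 84th and 80th from the lowest.

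GBP5, a lipid-anchored GBP found at the Golgi and linked to NLRP3 inflammasome assembly and to inhibition of the protease furin, fell furthest. It lies at chr1:89258950-89272804 on the minus strand (ENSG00000154451). Its counts were 5, 13 and 12 in the ruxolitinib libraries, or 0.262, 0.696 and 0.644 CPM, against 440, 667 and 631 counts, or 24.8, 26.5 and 27.4 CPM, in the control libraries. The transcript was close to the limit of counting with ruxolitinib, lowest in batch 1, and well above it in every control library. Summed over the libraries, 30 counts gave 0.532 CPM with ruxolitinib (exact Poisson 95% interval 0.359 to 0.759) and 1738 counts gave 26.3 CPM in control (25.1 to 27.6), intervals that cover counting error only. The log2 fold change was -5.61 ± 0.18 (SE, n = 3 per group, 95% interval -6.0 to -5.22, adjusted p = 3.04e-10), a 48.8-fold fall, and only 6 tested genes had a lower value. Within-batch log2 ratios were -6.10, -5.06 and -5.21, and they depend on the 0.1 CPM added because the ruxolitinib levels are low.

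**Figure D2:**
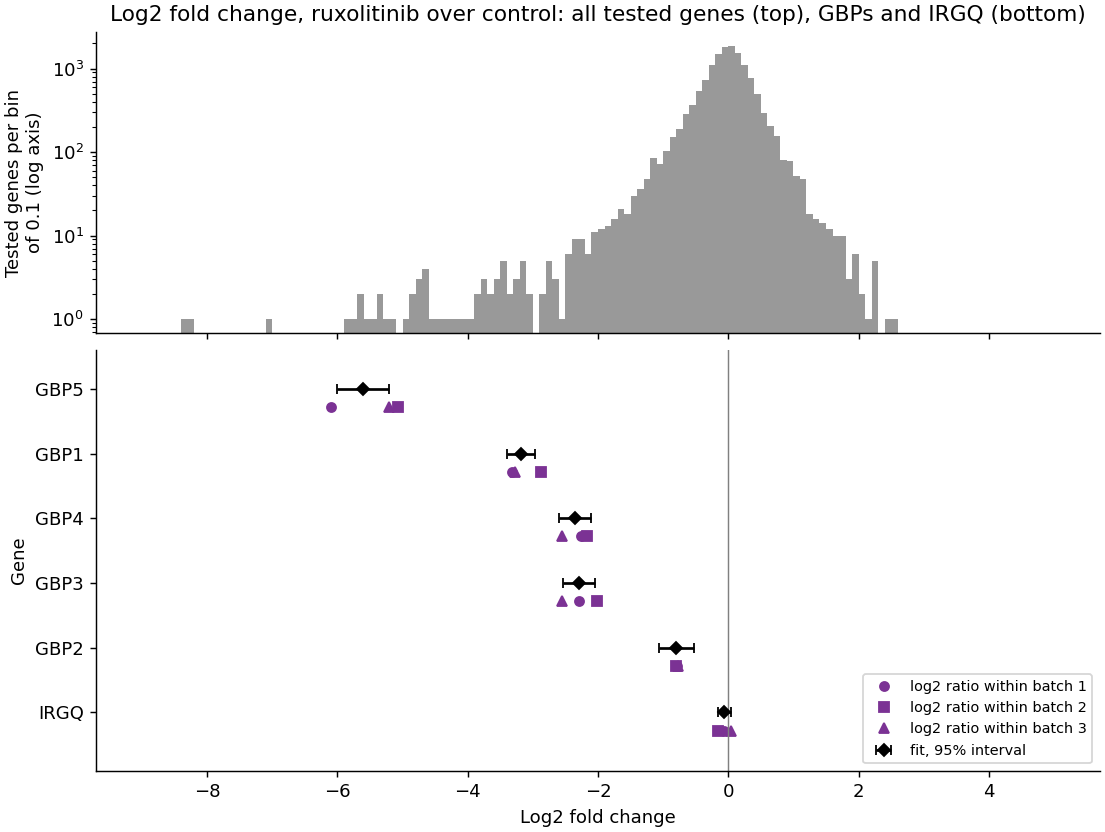
Log2 fold change, ruxolitinib over control, for all 14051 tested genes as a histogram with a log count axis (top), and for the 6 tested genes of the group with 95% intervals and within-batch log2 ratios (bottom). GBP5, GBP1, GBP4, GBP3 and GBP2 lie at -5.61, -3.18, -2.35, -2.30 and -0.80, with the 3 batches on the same side of 0, and IRGQ at -0.06; IRGM was not tested.

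Reads of similar GBPs can be shared out between them by the counting, so the sum of the 5 is given too. How reads that match several genes were counted is not stated, and the sum does not cover reads that were dropped or given to GBP1P1. GBP1 to GBP5 together had 17.8, 20.0 and 16.5 CPM in the ruxolitinib libraries, against 114, 112 and 117 CPM in the control libraries. The groups were far apart, with means of 18.1 ± 1.74 CPM and 114 ± 2.91 CPM (SD, n = 3 each). The log2 difference was -2.66, and the exact two-sided permutation test gave p = 0.1, the smallest that 3 against 3 libraries allow.

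The 5 GBPs fell by unequal factors, and their shares of the summed GBP transcripts lay apart between the groups. Shares were computed from counts per kb of exon within each library. GBP5 made up 1.92 ± 0.846% of the GBP transcripts with ruxolitinib and 15.6 ± 0.761% in control, and GBP1 22.7 ± 1.44% and 34.2 ± 0.799% (SD, n = 3 each). GBP2 moved the other way, to 22.6 ± 2.26% with ruxolitinib, against 6.48 ± 0.498% in control. GBP3 took 34.5 ± 1.99% with ruxolitinib and 28.2 ± 0.934% in control, and GBP4 18.3 ± 1.62% and 15.5 ± 0.518%. In each of the 5 shares the groups did not overlap, and each exact two-sided permutation test gave p = 0.1, also 0.1 after adjustment over the 5, the smallest that the design allows. Shares sum to 100% within a library, so a larger share of GBP2 or GBP3 does not mean a higher level. With the length of the longest coding transcript in place of all exons, an alternative chosen after seeing the data, the GBP4 shares overlapped (difference 0.810 percentage points, exact permutation p = 0.2). With that length GBP2 took 37.3 ± 3.25% with ruxolitinib, the largest share there, against 11.7 ± 0.852% in control (SD, n = 3 each). GBP3 took 28.2 ± 2.06% with ruxolitinib and 25.2 ± 0.912% in control, a difference of 3.03 percentage points in place of 6.28. The sizes of the shares thus depend on the length used, while the direction of each of the 5 differences was the same with both lengths.

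**Figure D3:**
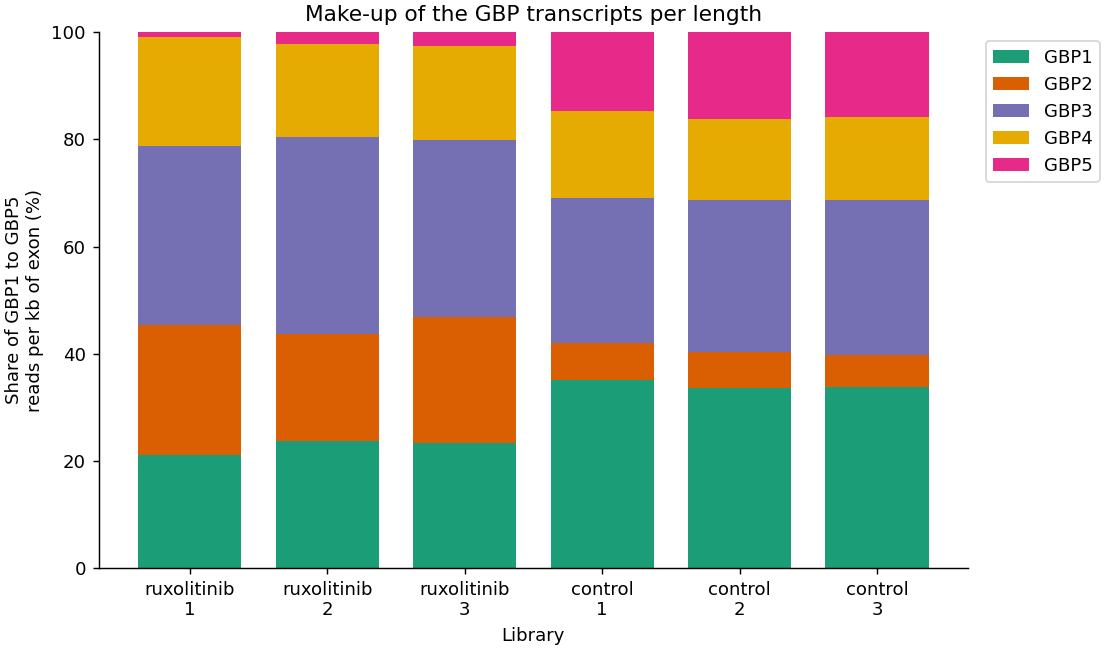
Share of each GBP in the GBP1 to GBP5 transcripts of each library, in percent of counts per kb of exon, with the ruxolitinib libraries to the left of the control libraries. GBP5 is a thin band with ruxolitinib, at 0.962 to 2.56% against 14.8 to 16.3% in control, and GBP2 takes 20.0 to 24.2% against 5.91 to 6.85%.

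IRGM, a small IRG GTPase that promotes autophagy of intracellular bacteria, lies on the plus strand at chr5:150846523-150900736 (ENSG00000237693). It had 5, 3 and 4 counts in the ruxolitinib libraries, or 0.262, 0.161 and 0.215 CPM, against 11, 4 and 9 counts, or 0.619, 0.159 and 0.391 CPM, in the control libraries. The groups overlapped, since the control library of batch 2 lay below all 3 ruxolitinib libraries. Summed counts gave 0.213 CPM with ruxolitinib (12 counts, exact Poisson 95% interval 0.110 to 0.372) and 0.364 CPM in control (24 counts, 0.233 to 0.541). IRGM did not pass the filter on low counts. With no filter its log2 fold change in edgeR was -0.80 (adjusted p = 0.529), so a difference was not detectable at this depth.

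IRGQ, a distant IRG relative that has been described as an autophagy receptor for misfolded MHC class I molecules, was the most abundant gene of the group. It lies at chr19:43584369-43596135 on the minus strand (ENSG00000167378), and L34079.1, which shares 169 exonic bases with it, was at 0 in all libraries. The ruxolitinib libraries had 164, 157 and 165 CPM, against 171, 175 and 161 CPM in the control libraries. The groups overlapped, with means of 162 ± 4.19 CPM and 169 ± 7.39 CPM (SD, n = 3 each). The log2 fold change was -0.06 ± 0.05 (SE, adjusted p = 0.393), with a 95% interval of -0.16 to 0.05, and the within-batch log2 ratios were -0.06, -0.16 and 0.04. Its mean abundance stood above that of 92.4% of the tested genes, so low counts do not limit this comparison.

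Levels of different genes were compared per length, as counts per kb of merged exon over the same scaled totals as CPM (FPKM). With ruxolitinib the order was IRGQ at 16.4 ± 0.425 FPKM, GBP3 at 1.18 ± 0.193, GBP1 at 0.775 ± 0.109, GBP2 at 0.765 ± 0.0425, GBP4 at 0.625 ± 0.0718, IRGM at 0.0935 ± 0.0224 and GBP5 at 0.0656 ± 0.0291 FPKM (SD, n = 3). GBP1 and GBP2 overlapped there, as did IRGM and GBP5, and the other neighbours in the order did not. In control the order was IRGQ at 17.1 ± 0.749 FPKM, GBP1 at 7.04 ± 0.250, GBP3 at 5.81 ± 0.300, GBP5 at 3.22 ± 0.165, GBP4 at 3.20 ± 0.155, GBP2 at 1.33 ± 0.0781 and IRGM at 0.172 ± 0.101 FPKM (SD, n = 3). There only GBP5 and GBP4 overlapped. GBP5 thus stood last of the 7 with ruxolitinib, whereas it stood above GBP4, GBP2 and IRGM in control, and GBP2 kept above GBP4 with the drug but below it in control. With the length of the longest coding transcript instead, GBP2 came second with ruxolitinib, at 2.16 FPKM, and stood above GBP4 in control, at 3.77 against 3.20 FPKM, so the place of GBP2 depends on the length used.

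All 5 GBPs lie in 1 cluster on chromosome 1, whose 16 annotated gene rows span chr1:89006666-89426243. Of the other rows inside, only the pseudogene PTGES3P1 had enough counts to be tested, and it did not pass (log2 fold change -0.49 ± 0.33, adjusted p = 0.292). GBP6 had 0 counts in all 6 libraries. Outside the cluster, the nearest genes on the GBP3 side were RBMXL1, an RNA-binding protein gene, at -0.27 ± 0.08 (adjusted p = 0.0222), KYAT3, an aminotransferase gene, at -0.20 ± 0.08 (adjusted p = 0.0667) and GTF2B, encoding the general transcription factor TFIIB, at -0.11 ± 0.06 (adjusted p = 0.206). On the other side lay LRRC8B at -0.46 ± 0.10 (adjusted p = 0.00411) and LRRC8C at -0.33 ± 0.05 (adjusted p = 0.000521), both encoding subunits of the volume-regulated anion channel. A further protein-coding row, ENSG00000271949, was at 0 throughout. The flanking genes that passed had smaller log2 fold changes than GBP2, at -0.80. The call of RBMXL1 was lost in 8 of 17 alternatives, at up to 0.192, and that of LRRC8B without batch 1 (adjusted p = 0.0908), and KYAT3 passed with library totals alone (adjusted p = 0.0383).

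**Figure D4:**
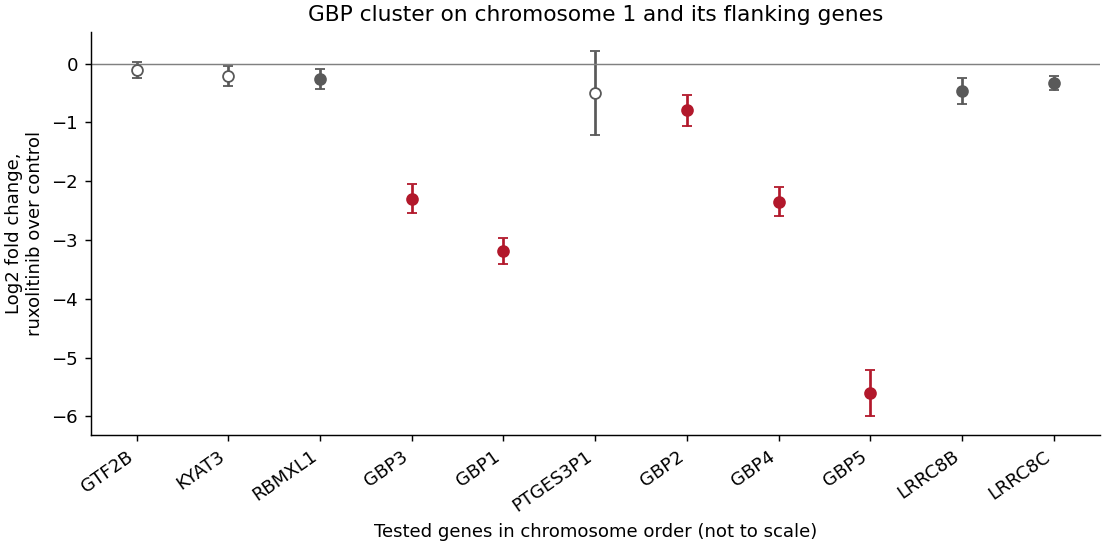
Log2 fold change, ruxolitinib over control, of the tested genes of the GBP cluster and its flanks in chromosome order, with 95% intervals; GBPs are red, other genes grey, and open points did not pass the threshold. The 5 GBPs lie between -5.61 and -0.80, below the flanking genes, which lie between -0.46 and -0.11.

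Other GTPase relatives differed in the size of their change. Of 10 listed, 5 were tested, 4 lower, 0 higher and 1 not past the threshold, with a median log2 fold change of -0.31. In the whole set of tested genes, 16.1% were lower and 13.6% higher. The antiviral dynamin-like GTPases fell steeply: MX2 had 4.72 ± 0.721 CPM with ruxolitinib and 146 ± 4.34 CPM in control, a log2 fold change of -4.95 ± 0.08, and MX1 0.337 ± 0.163 CPM and 3.64 ± 0.569 CPM, at -3.42 ± 0.31 (adjusted p = 6.09e-13 and 6.25e-06). The atlastins, which fuse membranes of the endoplasmic reticulum, moved little, with ATL3 at -0.31 ± 0.05 (adjusted p = 0.000463), ATL2 at -0.20 ± 0.07 (adjusted p = 0.0417, lost in 10 of 17 alternatives at up to 0.372) and ATL1 at 0.09 ± 0.39 (adjusted p = 0.891). Too low to test were GBP6, GBP7, GBP1P1, the testis gene IRGC with 0 counts with ruxolitinib and 3 in control, and GVINP1, a pseudogene of a very large interferon-inducible GTPase, with 6 and 16 counts.

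Among interferon ligands and receptors, 4 of 6 listed genes were tested, 1 lower, 1 higher and 2 not past the threshold. Over all tested genes, 16.1% were lower and 13.6% higher. The receptor chain genes changed little, with IFNGR1 at a log2 fold change of -0.16 ± 0.05 (adjusted p = 0.0295) and IFNAR1 at 0.19 ± 0.06 (adjusted p = 0.0313), calls lost in 10 of 17 alternatives for IFNGR1, at up to 0.269, and in 8 for IFNAR1, at up to 0.136. IFNGR2 stood at 0.12 ± 0.04 (adjusted p = 0.056, past the threshold in 2 of 17 alternatives). The ligand genes were too low to test: IFNG, encoding interferon gamma, had 1 count with ruxolitinib and 0 in control, and IFNB1, encoding interferon beta, 3 and 5 counts.

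Of 9 kinases and transcription factors upstream of GBP genes, all tested, 6 were lower, 1 higher and 2 did not pass, with a median log2 fold change of -0.23. The shares over all tested genes were 16.1% lower and 13.6% higher. IRF9, the DNA-binding subunit of the complex that reads ISRE sites, had 12.5 ± 1.00 CPM with ruxolitinib and 61.3 ± 0.222 CPM in control (log2 fold change -2.29 ± 0.07, adjusted p = 1.64e-10), and STAT2, its partner, 57.6 ± 7.25 CPM and 127 ± 4.32 CPM (log2 fold change -1.14 ± 0.08, adjusted p = 4.56e-06). IRF1, a direct activator of GBP genes, was lower by less, at 32.1 ± 0.384 CPM with ruxolitinib against 43.0 ± 1.12 CPM in control (log2 fold change -0.42 ± 0.06, adjusted p = 0.000148). IRF2, an antagonist of IRF1, stood at -0.23 ± 0.05 on the log2 scale (adjusted p = 0.00503, but 0.0565 without control replicate 3, 0.104 without batch 1 and 0.0705 without batch 3). IRF8, a myeloid factor, was the 1 gene of this list that rose, to 17.5 ± 0.489 CPM with ruxolitinib, against 10.3 ± 0.373 CPM in control (log2 fold change 0.76 ± 0.09, adjusted p = 3.44e-05).

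The listed enzymes attach prenyl lipid anchors, of the kind carried by GBP1, GBP2 and GBP5, or process prenylated proteins in general. Their genes showed little change, and which enzyme acts on which GBP was not examined here. All 6 were tested, 1 was lower, 0 higher and 5 did not pass, beside 16.1% lower and 13.6% higher over all tested genes. The lower one was ZMPSTE24, a protease that trims prenylated proteins, at -0.17 ± 0.05 (adjusted p = 0.0181), a call lost in 9 of 17 alternatives at up to 0.323. The farnesyltransferase subunit genes FNTA and FNTB had log2 fold changes of -0.14 ± 0.06 (adjusted p = 0.0929, past the threshold in 4 of 17 alternatives) and -0.27 ± 0.14 (adjusted p = 0.171).

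Partners and effectors of GBPs at bacteria and inflammasomes included several falls beside the GBPs. Of 12 listed genes, 11 were tested, 6 lower, 1 higher and 4 not past the threshold, with a median log2 fold change of -0.38. Among all tested genes, 16.1% were lower and 13.6% higher. AIM2, a sensor of cytosolic DNA, had 0.265 ± 0.137 CPM with ruxolitinib and 5.81 ± 0.921 CPM in control (log2 fold change -4.42 ± 0.29, adjusted p = 3.28e-07). RNF213, a ubiquitin ligase that modifies bacterial LPS, had 62.1 ± 7.99 CPM and 260 ± 12.2 CPM (log2 fold change -2.07 ± 0.09, adjusted p = 2.99e-07). APOL3, which breaks up bacterial membranes with GBP1, had 0.443 ± 0.0756 CPM with ruxolitinib and 1.60 ± 0.224 CPM in control (log2 fold change -1.83 ± 0.30, adjusted p = 0.000619), and CASP1, the caspase of canonical inflammasomes, 32.7 ± 1.02 CPM and 79.8 ± 0.456 CPM (log2 fold change -1.29 ± 0.05, adjusted p = 3.67e-09).

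Smaller changes were found in PIM1, a kinase that phosphorylates GBP1, at -0.37 ± 0.06 (adjusted p = 0.000457), and in PYCARD, the inflammasome adaptor ASC, at -0.44 ± 0.11 (adjusted p = 0.00973, but 0.0837 without batch 1 and 0.0524 without batch 3). NLRP3, an inflammasome sensor, was the 1 gene of this list that was higher, at 0.29 ± 0.05 (adjusted p = 0.00124, but 0.0642 without batch 1). SFN, encoding the 14-3-3 protein that binds phosphorylated GBP1, had 1 count with ruxolitinib and 0 in control and was too low to test. CASP4, the caspase that senses LPS on the GBP coat, had 141 ± 6.71 CPM with ruxolitinib and 136 ± 3.21 CPM in control, with overlapping groups (log2 fold change 0.05 ± 0.05, adjusted p = 0.46), and was named after its values were seen.

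Of 10 autophagy genes tied to IRGM or IRGQ, all tested, 1 was lower, 2 were higher and 7 did not pass, a share near the 29.7% of all tested genes that passed, with a median log2 fold change of 0.12. STX17, a SNARE of autophagosome fusion that binds IRGM, had 14.7 ± 0.374 CPM with ruxolitinib and 25.8 ± 1.91 CPM in control (log2 fold change -0.81 ± 0.08, adjusted p = 1.21e-05). MAP1LC3B, encoding the autophagosome protein LC3B, stood at 0.21 ± 0.05 on the log2 scale (adjusted p = 0.00611, but 0.126 without batch 1), and SQSTM1, encoding the receptor p62, 0.19 ± 0.05 (adjusted p = 0.00709, but 0.0511 without control replicate 1 and 0.194 without batch 1).

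**Figure D5:**
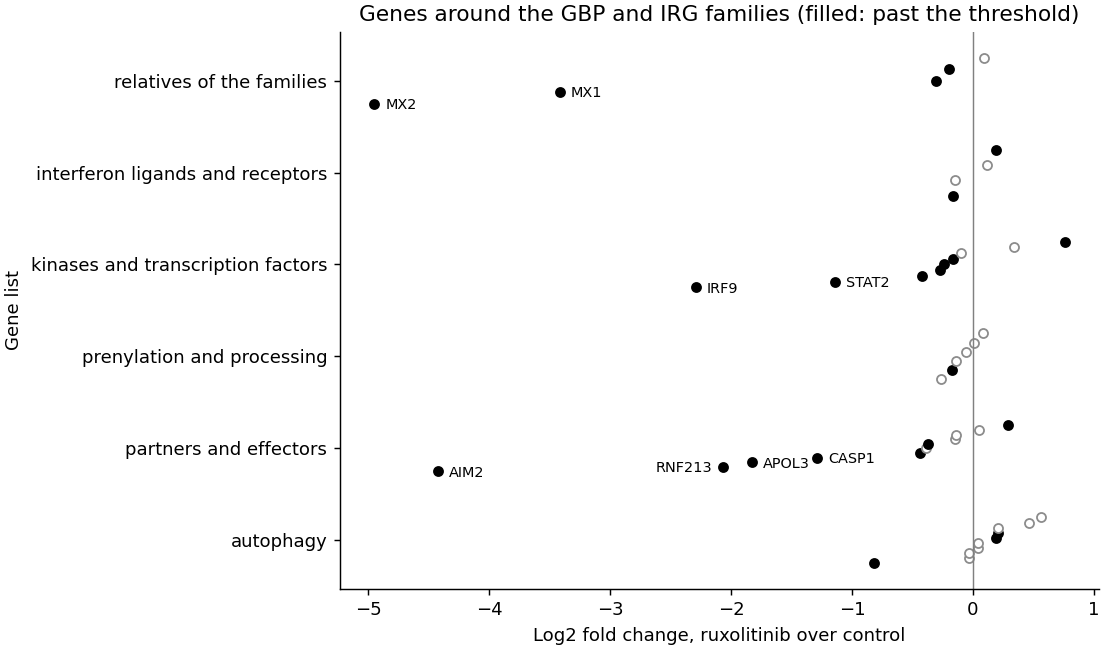
Log2 fold change, ruxolitinib over control, of the tested genes in the 6 lists around the GBP and IRG families; filled points passed the adjusted p of 0.05 and open points did not. Names are given to genes beyond 1 in size on that scale, and all of them, from MX2 at -4.95 to STAT2 at -1.14, were lower with ruxolitinib.

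The genes whose pattern over the 6 libraries was most like each GBP were found by the root mean square difference of centred log2 CPM, among tested genes with a mean of at least 1 CPM. Closest to GBP1 were PLSCR1 and PARP14, each at 0.08, and EIF2AK2 at 0.11. Closest to GBP2 were STX17 at 0.04 and TRIM38 and TMEM255A, each at 0.05. GBP3 was nearest to TDO2 at 0.09 and to GBP4 and PNPT1, each at 0.12, and GBP4 to CCR1 at 0.06, TDO2 at 0.07 and CCL1 at 0.09. GBP5 had no neighbour so close, with IFIT5 at 0.34, OAS1 at 0.36 and PARP9 at 0.40, and its low counts with ruxolitinib add counting error to that distance. These distances mainly hold the size of the difference between the groups, since the 6 libraries form 2 groups.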

How the data were processed

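The table deposited by the authors holds whole-number read counts per gene for 6 THP-1 libraries, and every row names a gene. The genome build was hg38, per the submitters' processing notes. How reads were aligned and counted, with which annotation and strand setting, is not given in the sources used here. Reads of genes that overlap on opposite strands therefore cannot be told apart. The antisense rows over GBP4 and GBP5 held at most 1 count per library. ZNF300, on the opposite strand to IRGM, overlaps it by 6345 bases, with 0 bases shared between exons. It held 36 to 74 counts per library. Gene coordinates and merged exon lengths came from GENCODE 29 (GRCh38), which held 58340 of the 61517 identifiers, and promoters from RefSeq. Protein sequences were not used here.

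Counts were tested in edgeR 4.0.16 (R 4.3.3) by the robust quasi-likelihood test with TMM factors, filterByExpr (minimum count 10, minimum total 15) and Benjamini-Hochberg adjustment over 14051 genes at 0.05. This is the source of every adjusted p unless another test is named. Log2 fold changes are ruxolitinib over control. Levels are CPM over TMM-scaled totals, with mean ± SD over 3 libraries; standard errors came from the coefficient and its F statistic. Libraries of a group differed beyond sampling noise (chi-square per degree of freedom 3.38 to 21.1).

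The labels give a batch number shared by a ruxolitinib and a control library, and on that ground the numbers pair them; the correlations of the deviations of paired libraries from their group means were -0.02, -0.19 and -0.10. The alternatives, 17 for each tested gene, were the batch as a block, median-ratio factors, library totals, upper-quartile scaling, no filter, a filter of 1 CPM in 3 libraries, DESeq2 1.42.0, limma-voom (limma 3.58.1), and fits without each library or each batch in turn. The members and lists were chosen with earlier results of these data known, and some listed genes are not reported here. From each list, genes past the threshold that changed by 1 or more on the log2 scale, up to 3 others by smallest adjusted p, and all genes too low to test are named, with the cluster's flanking genes and the 3 most alike genes per GBP.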

Additional observations from a re-analysis of the deposited data

How the results depend on the processing

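In all 17 alternatives 5 of the 7 genes were called lower and 0 higher. The log2 fold changes ran from -3.33 to -3.10 for GBP1, -0.84 to -0.75 for GBP2 (largest adjusted p = 0.0125), -2.45 to -2.16 for GBP3, -2.43 to -2.24 for GBP4, -5.84 to -5.28 for GBP5 and -0.11 to -0.01 for IRGQ, whose adjusted p was 0.164 to 0.902. With the batch as a block, 2911 genes passed in all, 1624 lower and 1287 higher, and no call of the 7 genes changed; among the other named genes it ended the calls of ATL2, IFNGR1, IFNAR1, ZMPSTE24 and RBMXL1. Without both libraries of batch 1, 1983 genes passed, 1142 lower and 841 higher. Scaling moved the split of the 4176 calls, from 2263 lower and 1913 higher to 2616 lower and 1581 higher with library totals alone and 1954 lower and 2321 higher with upper-quartile factors. Leaving out 1 library gave 2941 to 4264 calls, 1620 to 2170 lower and 1321 to 2094 higher. Over the 6 lists, 19 genes were lower and 5 higher in the main fit. In that fit 16.1% of all tested genes were lower and 13.6% higher. Without batch 1 the list counts were 12 and 1, beside 1142 and 841 over all genes. Without batch 3, 12 listed genes were lower, beside 1589 over all genes. Without batch 2, or with no filter, 8 listed genes were higher, beside 2554 and 2003 over all genes. For the lists, leaving out 1 library gave 14 to 21 lower and 4 to 7 higher. ATL2, IFNGR1 and ZMPSTE24 lost their calls without replicate 1 or 3 of either group, IFNAR1 without ruxolitinib replicate 1 or 2 or control replicate 2 or 3, and RBMXL1 without ruxolitinib replicate 1 or 2 or control replicate 1 or 3 (adjusted p = 0.0607 to 0.196 in edgeR). FNTA passed without replicate 2 of either group and IFNGR2 without ruxolitinib replicate 3. ATL1, not past the threshold in any, changed sign without ruxolitinib replicate 1 (-0.23), without control replicate 3 (-0.19) and without batch 1 (-0.048), and leaving out 1 library took it from -0.23 to 0.35. The causes were not tested. The summed GBP log2 difference ran from -2.73 to -2.60. Depth limits IRGM and the GBP5 level with ruxolitinib.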
